A study of Malus domestica with 15 samples.

Results

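In the skin of stored apples, 105 loci with an apple gene model stood higher in untreated fruit after shelf life than straight after cold storage, while in fruit treated with 1-methylcyclopropene (1-MCP) the values at these times differed by less than 1 log2 unit. The members were chosen by measured values, on the scale log2(FPKM + 1), where FPKM is a fragment count corrected for transcript length and library size. A member had a difference of at least 1.5 between control fruit after shelf life and control fruit after cold storage. Its difference between the end of cold storage and harvest was under 1 in size in control fruit, and so was its shelf-life difference in 1-MCP fruit. It also had a mean of at least 1 FPKM and no column listed at 0. The 105 members are 0.346% of the 30310 loci with a gene model that passed these filters, in a table of 80965 loci. Naming 2 gene models to be left out removed 0 of them.

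The study sampled apple (Malus domestica) skin in 5 groups of 3 biological replicates. Fruit given 1-MCP at 0.7 µl/L were sampled after 2 months of cold storage and after a further 7 days of shelf life, control fruit were sampled at both of these times, and untreated fruit were sampled at harvest. The cultivar is not given in the sources used here. Harvest fruit were neither treated nor stored, so any difference of 1-MCP fruit from harvest joins the treatment with storage, and cold and time cannot be told apart. The table holds 1 FPKM value per group and none per library. No test, SD or interval was therefore possible, and every value below lacks a replicate check.

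Apple is a climacteric fruit, in which ripening goes with a burst of ethylene that speeds its own synthesis. Cold slows this course, and it resumes when stored fruit are brought to shelf conditions. 1-MCP binds ethylene receptors and keeps them from responding, which is why it is used to hold fruit firm and to limit superficial scald, a browning of the skin that develops after cold storage and becomes visible during shelf life. The members are known here only by the identifiers of assembled loci (CUFF numbers) and gene models (MDP numbers). A search of RefSeq's apple genes (assembly GDT2T_hap1) matched 0 of their 107 gene models, so no name, role, position or sequence is given, and the tissue was not checked against skin markers. In a bulk sample, more cells of a type and more RNA per cell cannot be told apart.

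The general level of the columns differed. The median over the 30310 loci was 9.19 FPKM in 1-MCP fruit after shelf life, 10.3 FPKM in 1-MCP fruit after cold storage, 7.98 FPKM in control fruit after shelf life, 9.79 FPKM in control fruit after cold storage and 11.1 FPKM at harvest. The median shelf-life difference of these loci was -0.13 in 1-MCP fruit and -0.24 in control fruit. Dividing each column by its 75th percentile brought the medians to -0.02 in 1-MCP and -0.08 in control fruit, and 157 loci then met the rule, 92 of them among the 105.

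Across the members the control column after shelf life stood out, as the rule required. The median level was 3.05 FPKM at harvest. In 1-MCP fruit it was 3.32 FPKM after cold storage and 3.21 FPKM after shelf life, and in control fruit 3.22 FPKM and 16.8 FPKM at these times. Control fruit after shelf life held the highest of the 5 values at 101 of 105 members, against 10.6% of the 30310 loci, and nothing is read from this because the rule used that column. The lowest value fell in no single group. It lay in 1-MCP fruit after shelf life at 30 members and after cold storage at 15, in control fruit after cold storage at 28, and at harvest at 32.

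**Figure D1:**
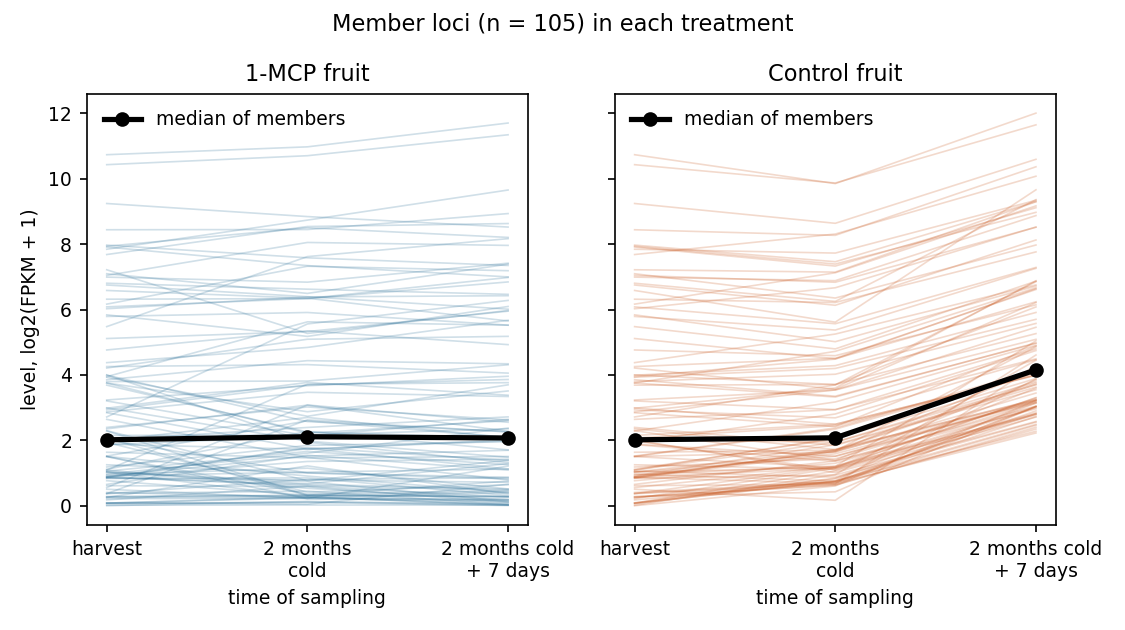
Levels of the 105 members, as log2(FPKM + 1), at harvest, after 2 months in the cold and after 7 more days of shelf life, in 1-MCP fruit (left) and control fruit (right). Each thin line is a locus and the black line joins the medians, which stay level in 1-MCP fruit and turn up in control fruit after shelf life.

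The size of the control shelf-life difference was mostly modest. It ran from 1.502 to 4.14 with a median of 1.80 log2 units, and 71 members lay under 2, 24 between 2 and 3, and 10 at 3 or more. Only 1.19% of the 30310 loci reached 1.5, which is the share the rule drew on. As a plain ratio of FPKM, the members were between 2.89-fold and 153-fold higher after shelf life, with a median of 4.45-fold. The highest ratios belong to loci that were scarcely detected in the cold. At the 85 members with at least 1 FPKM in control fruit after cold storage, the median ratio was 4.15-fold and the highest 24.6-fold.

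Of the members, MDP0000484546 had the largest control shelf-life difference. It stood at 0.419 FPKM at harvest, and from there at 0.169 FPKM after cold storage and 1.32 FPKM after shelf life in 1-MCP fruit, and at 0.123 and 18.8 FPKM in control fruit. Its control shelf-life difference was 4.14 log2 units and its 1-MCP difference 0.99, just under the limit for a steady value. Near 0 a pseudocount of 1 hides relative change, and with a pseudocount of 0.1 the 1-MCP difference of this locus was 2.40, so it was then not steady.

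CUFF.32181 (MDP0000626880) came next, at a level where the pseudocount matters little. It read 94.8 FPKM at harvest, 80.4 FPKM after cold storage and 49.2 FPKM after shelf life in 1-MCP fruit, and 48.0 and 808 FPKM in control fruit. The control difference over shelf life was 4.05 log2 units, a ratio of 16.9-fold, while 1-MCP fruit differed by -0.70. After shelf life 1-MCP fruit stood 4.01 log2 units below control fruit, whereas after cold storage they stood 0.73 log2 units above control fruit. The 10 members with a control difference of 3 or more had shelf-life differences from -0.70 to 0.99 in 1-MCP fruit, within the limit of the rule. Of these 10, 7 were below 0, near the 65.1% of the 30310 loci that were.

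The members spanned a wide range of abundance, from 3.67 to 4109 FPKM in control fruit after shelf life. Their highest value was under 10 FPKM at 36, from 10 to 100 FPKM at 42, and 100 FPKM or more at 27. Summed over members, FPKM was 10811 in 1-MCP fruit after shelf life (0.374% of the table's sum), 7920 in 1-MCP fruit after cold storage (0.285%), 20720 in control fruit after shelf life (0.779%), 5122 in control fruit after cold storage (0.204%) and 6854 at harvest (0.257%). The 4 most abundant members held 49.1% of this sum in control fruit after shelf life, so the sum describes few loci.

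The 2 most abundant members were not unchanged in 1-MCP fruit. MDP0000764121 stood at 1702 FPKM at harvest, at 2011 FPKM after cold storage and 3331 FPKM after shelf life in 1-MCP fruit, and at 922 and 4109 FPKM in control fruit. Its shelf-life difference was 0.73 in 1-MCP fruit and 2.15 in control fruit. CUFF.7708 (MDP0000922599) read 1378 FPKM at harvest, 1666 and 2597 FPKM in 1-MCP fruit, and 934 and 3205 FPKM in control fruit. After shelf life the treatments differed by -0.30 log2 units at each of these loci. Control fruit after cold storage differed from harvest by -0.88 and -0.56 log2 units at these loci.

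The other 3 members at 1000 FPKM or more in control fruit after shelf life, named after their values were seen, were further apart between treatments. CUFF.25303 (MDP0000291220) stood at 604 FPKM at harvest, 458 and 367 FPKM in 1-MCP fruit, and 397 and 1544 FPKM in control fruit. CUFF.15339 (MDP0000021376) had 346 FPKM at harvest, 348 and 488 FPKM in 1-MCP fruit, and 307 and 1317 FPKM in control fruit. CUFF.10872 (MDP0000148873) had 204 FPKM at harvest, 371 and 395 FPKM in 1-MCP fruit, and 316 and 1078 FPKM in control fruit. After shelf life these 3 loci lay 2.07, 1.43 and 1.45 log2 units lower in 1-MCP than in control fruit.

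Within the limit of 1 that the rule set, members differed over shelf life in 1-MCP fruit to varying degrees. Of all 105, the 1-MCP shelf-life difference was within 0.5 at 70, at 0.5 or more at 21 and at -0.5 or less at 14. Among the 30310 loci 23112 were within 0.5, so steadiness in 1-MCP fruit does not set the members apart. The 1-MCP shelf-life difference was below 0 at 60 members (and at 65.1% of the 30310 loci). Its median was 0.38 over the 27 members peaking at 100 FPKM or more, -0.05 over the 42 peaking between 10 and 100 FPKM, and -0.10 over the 36 below 10 FPKM. Among the 27 abundant members 12 reached 0.5 or more and 1 reached -0.5 or less, and the difference was above 0 at 16 and below 0 at 11. The pseudocount of 1 compresses these differences at low FPKM. As plain ratios of FPKM over shelf life in 1-MCP fruit, the 27 abundant members ran from 0.613-fold to 1.91-fold, with a median of 1.39-fold. The 42 members between had a median of 0.911-fold (0.299-fold to 7.81-fold). The 36 members below 10 FPKM had a median of 0.653-fold and a far wider range, from 0.063-fold to 17.3-fold, so on ratios the low members were the less steady ones. The label of a late difference in control fruit only is thus loose at the 21 members at 0.5 or more, where 1-MCP fruit were higher after shelf life too. Of these 21, 12 were abundant, 7 peaked between 10 and 100 FPKM and 2 below 10 FPKM. The label is also loose at low members whose ratios were wide.

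**Figure D2:**
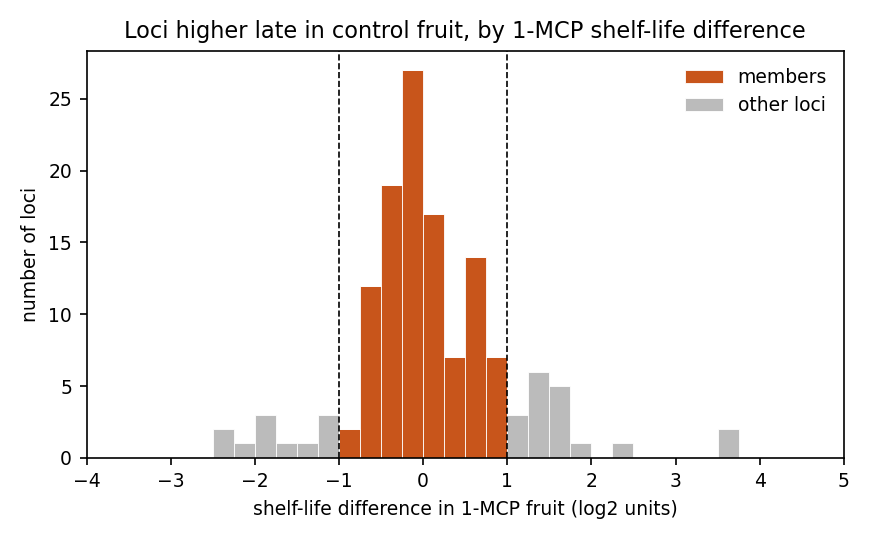
Number of loci by their shelf-life difference in 1-MCP fruit (log2 units of FPKM + 1, bins of 0.25), for the 135 loci with a gene model that met the conditions on control fruit. Coloured bars are the 105 members, grey bars the 30 other loci, and dashed lines mark the limits of -1 and 1. Most members lie within 0.5 of no difference, as did 23112 of the 30310 loci, and members show a shoulder between 0.5 and 1.

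The limits of the rule cut through a continuous spread. Of 362 loci with a control shelf-life difference of at least 1.5, 114 were already at least 1 log2 unit above harvest after cold storage. A further 113 were at least 1 below harvest, and 135 were within 1. Over the 30310 loci these shares were 6.6% above, 12.5% below and 80.9% within 1. In 1-MCP fruit 105 of the 135 stayed within 1 over shelf life, 9 were higher by 1 to 1.5, 9 were higher by 1.5 or more, and 12 were lower by 1 or more. Of the 30310 loci 93.6% stayed within 1 over shelf life in 1-MCP fruit, 1.94% were higher by at least 1 and 4.5% lower. Exchanging the treatments in the rule, so that 1-MCP fruit carry the late difference and control fruit are steady, gave 41 loci. With 75th percentile scaling the 2 counts were 157 and 55.

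Values of the loci nearest to each limit show how the list was bounded. Just inside the 1.5 limit lay CUFF.31318 (MDP0000321057), with 51.0 FPKM after shelf life and 17.4 FPKM after cold storage in control fruit, and CUFF.14416 (MDP0000238350), with 15.0 and 4.63 FPKM. Their control shelf-life differences were 1.502 and 1.503. Just outside lay MDP0000275507, with 6.23 and 1.58 FPKM and a difference of 1.487, and MDP0000307516, with 56.4 and 19.5 FPKM and a difference of 1.486.

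On the limit between the end of cold storage and harvest in control fruit, MDP0000326731 (a difference of -0.997) and MDP0000209633 (0.987) were the members nearest to it. The nearest loci outside were CUFF.30074 (MDP0000195633) and CUFF.5868 (MDP0000236441), both at 1.003. This pair had identical values in all 5 columns, as did 852 of the 30310 loci with some other locus, but 0 of the 105 members shared its values with any locus of the table. On the limit for 1-MCP fruit, MDP0000484546 (0.99) and CUFF.31318 (0.96) lay just inside. MDP0000287581 (-1.05) and CUFF.21761 (MDP0000766223, -1.08) lay just outside on the lower side.

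The rule did not use the difference between treatments after cold storage, although that difference shares its control column with the rule. Here 74 members lay within 1 log2 unit, 17 were higher in 1-MCP fruit by at least 1 (16.2%), and 14 were lower (13.3%). Over the 30310 loci 8.9% were higher and 8.03% lower. Over the 23548 loci that met the other 2 conditions on steadiness, whatever their control shelf-life difference, 3.7% were higher and 3.84% lower. The members' median was -0.07, against 0.09 over the 30310 loci. The share within 1 was 70.5% of the members, against 83.1% of the 30310 loci. Within 0.5 lay 46 of the 105 members, against 18319 of the 30310 loci and 16577 of the 23548. With a pseudocount of 0.1, 1-MCP fruit were the higher ones at 21 members and the lower ones at 32. Shares over all loci at this pseudocount were not computed.

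After shelf life 1-MCP fruit were lower than control fruit by at least 1 log2 unit at 86 members (81.9%), within 1 at 18 and higher at 1, where 8.37% of the 30310 loci were lower and 12.7% higher. This follows in part from the rule, because it is the sum of the differences that the rule fixed and of the difference before shelf life. The members' median was -2.10, against 0.23 over the 30310 loci. The shelf-life difference in 1-MCP fruit minus that in control fruit ran from -4.74 to -0.54, with a median of -1.94, and was -1 or lower at 100 members. The rule itself keeps it below 0. The 5 others, 3 of them named after their values were seen, were CUFF.31318, CUFF.35758 (MDP0000404409), CUFF.7600, CUFF.12836 and CUFF.46700.

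**Figure D3:**
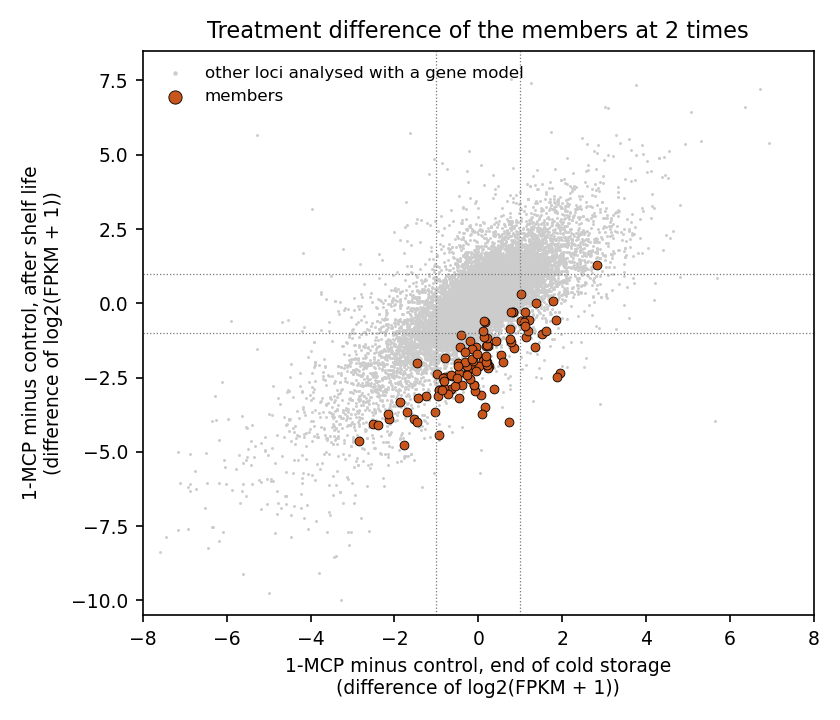
Difference between 1-MCP and control fruit after shelf life (vertical axis) against that after cold storage (horizontal axis), in log2 units of FPKM + 1, for the 105 members (large points) and the other loci analysed with a gene model (small points). Dotted lines mark -1 and 1, and the members form a band under the cloud, with 86 below -1 on the vertical axis and 1 above 1.

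The 74 members within 1 log2 unit between treatments in the cold had differences there from -0.98 to 0.85, and 46 of them lay within 0.5. After cold storage their median was 2.23 FPKM in 1-MCP fruit, against 2.22 FPKM in control fruit. After shelf life it was 1.82 FPKM in 1-MCP fruit, against 13.1 FPKM in control fruit. Of these 74, 67 were lower in 1-MCP fruit after shelf life by at least 1, and 7 lay within 1. This restates the selection for the most part, because the rule set both shelf-life differences and these loci were grouped by the difference in the cold. CUFF.32181 and CUFF.14416 belong here. CUFF.14416 read 3.44 FPKM at harvest, 3.48 and 4.10 FPKM in 1-MCP fruit after cold storage and after shelf life, and 4.63 and 15.0 FPKM in control fruit.

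A further 14 members were already lower in 1-MCP fruit when shelf life began. Their median after cold storage was 1.16 FPKM in 1-MCP fruit, against 7.34 FPKM in control fruit, and after shelf life 0.645 FPKM in 1-MCP fruit, against 27.9 FPKM in control fruit. All 14 were lower in 1-MCP fruit after shelf life, by 2.00 to 4.76 log2 units. A lower value at each was fixed beforehand by the rule and by the grouping. At 11 of the 14 the 1-MCP value after cold storage was at least 1 log2 unit below harvest, against 9.63% of the 30310 loci. Nothing is read from this, because the grouping and the rule together put all 14 below harvest.

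MDP0000376469 had the most negative treatment difference after cold storage. It stood at 3.88 FPKM at harvest, at 0.252 and 0.208 FPKM in 1-MCP fruit after cold storage and after shelf life, and at 8.02 and 29.0 FPKM in control fruit. The treatment difference was -2.85 in the cold and -4.63 after shelf life. MDP0000369117 followed at a higher level, with 12.5 FPKM at harvest, 3.65 and 5.07 FPKM in 1-MCP fruit, and 25.4 and 100.5 FPKM in control fruit (treatment differences of -2.50 and -4.06). At both loci control fruit were about 0.9 to 1 log2 unit above harvest in the cold (0.89 and 0.97), just under the limit.

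CUFF.14119 (MDP0000281041) had the most negative treatment difference after shelf life. It read 15.0 FPKM at harvest, 2.84 and 1.495 FPKM in 1-MCP fruit, and 12.1 and 66.6 FPKM in control fruit. The treatments differed by -1.76 in the cold and by -4.76 after shelf life. MDP0000209633 had the largest positive difference between cold storage and harvest in control fruit among members, with 1.13 FPKM at harvest, 0.448 and 0.134 FPKM in 1-MCP fruit, and 3.22 and 15.9 FPKM in control fruit. CUFF.31318, the member just inside the 1.5 limit, stood at 14.2 FPKM at harvest, 5.66 and 12.0 FPKM in 1-MCP fruit, and 17.4 and 51.0 FPKM in control fruit, so its 1-MCP value was nearer to harvest after shelf life than before.

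The remaining 17 members ran the other way in the cold. Their median after cold storage was 20.7 FPKM in 1-MCP fruit, against 9.19 FPKM in control fruit, and after shelf life 19.3 FPKM in 1-MCP fruit, against 32.0 FPKM in control fruit. After shelf life 11 of them were within 1 log2 unit between treatments, 5 were lower in 1-MCP fruit and 1 was higher. Here too the rule set both shelf-life differences, so the values after shelf life follow in part from those in the cold.

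CUFF.43951 (MDP0000330360) was the single member that was higher in 1-MCP fruit by at least 1 after shelf life. It stood at 43.5 FPKM at harvest, at 195 and 286 FPKM in 1-MCP fruit, and at 26.8 and 116 FPKM in control fruit. The treatment difference was 2.82 in the cold and 1.30 after shelf life. CUFF.7600 (MDP0000362288) was similar in form, with 229 FPKM at harvest, 425 and 805 FPKM in 1-MCP fruit, and 211 and 647 FPKM in control fruit, and a treatment difference of 0.31 after shelf life. Its 1-MCP shelf-life difference of 0.92 was close to the limit.

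MDP0000326731 had 3.03 FPKM at harvest, 4.26 and 5.58 FPKM in 1-MCP fruit, and 1.02 and 5.55 FPKM in control fruit, so the treatments were level after shelf life (0.01). CUFF.30265 (MDP0000294168), named after its values were seen, had 1.13 FPKM at harvest, 12.2 and 12.6 FPKM in 1-MCP fruit, and 2.84 and 12.0 FPKM in control fruit. With CUFF.43951 and CUFF.7600 these are the 4 members whose highest value lay in 1-MCP fruit after shelf life. MDP0000372629 had the largest difference from harvest in 1-MCP fruit after shelf life (3.56), with 5.57 FPKM at harvest, 46.1 and 76.6 FPKM in 1-MCP fruit, and 12.0 and 114 FPKM in control fruit.

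Of the 17 members at least 1 log2 unit higher in 1-MCP fruit in the cold, 13 were below 0 after shelf life, 5 of them by at least 1. Over all 105 members the treatment difference was above 0 at 49 in the cold and at 4 after shelf life. The rule favours such a change of sign, because it keeps the shelf-life difference in 1-MCP fruit under that in control fruit. The 5 members past the limit of 1 at both times are given here. At MDP0000272658 harvest fruit had 0.292 FPKM, 1-MCP fruit 5.17 and 3.77 FPKM, and control fruit 0.588 and 23.4 FPKM. The treatment difference was 1.96 in the cold and -2.35 after shelf life. MDP0000179666, named after its values were seen, behaved much like it, with 0.471 FPKM at harvest, 7.46 and 4.86 FPKM in 1-MCP fruit, and 1.30 and 32.0 FPKM in control fruit. CUFF.36546 (MDP0000873342) had 4.11 FPKM at harvest, 7.43 and 3.85 FPKM in 1-MCP fruit, and 2.29 and 12.5 FPKM in control fruit. The others, also named after their values were seen, were MDP0000386316 (a treatment difference of 1.14 in the cold and -1.12 after shelf life) and CUFF.18849, which carries MDP0000188194 and MDP0000355495 (1.53 and -1.03).

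**Figure D4:**
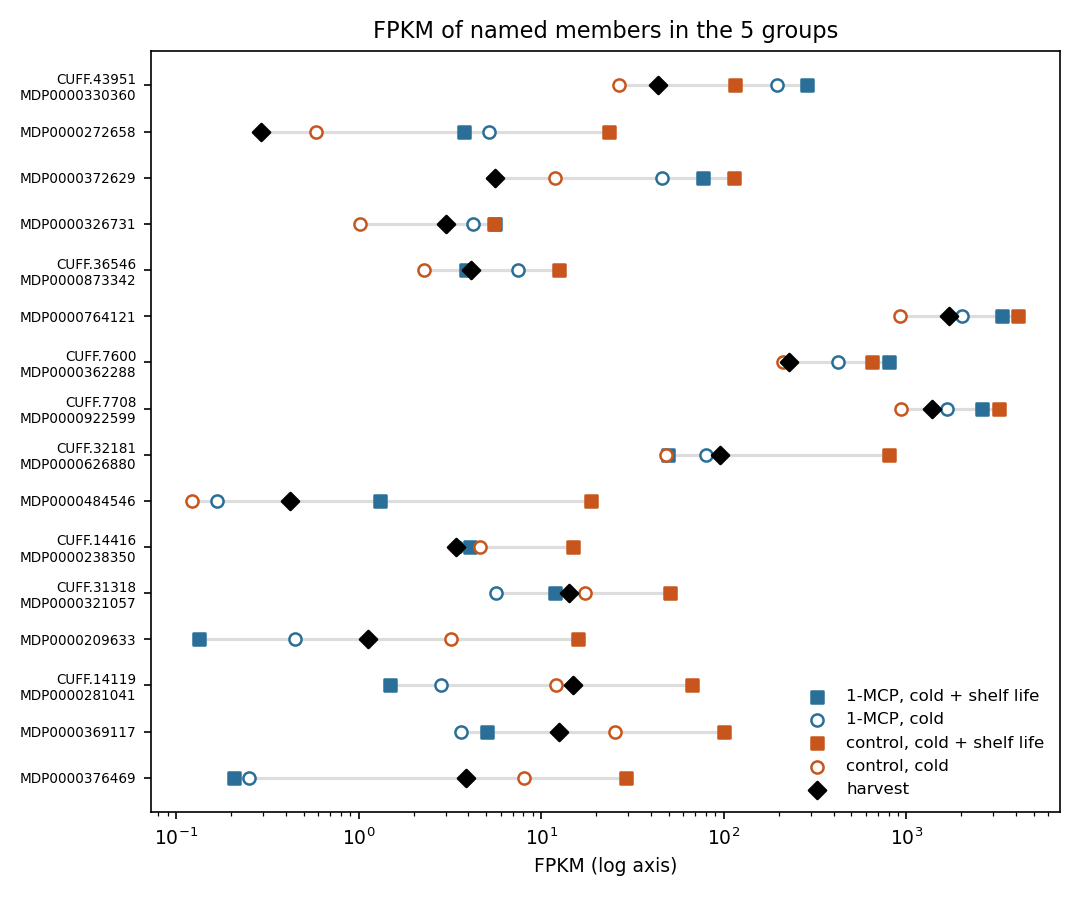
FPKM (log axis) of 16 named members in 1-MCP fruit after shelf life and after cold storage, in control fruit at both times, and at harvest. Rows run from the most positive (top) to the most negative (bottom) treatment difference after cold storage, from 2.82 at CUFF.43951 to -2.85 at MDP0000376469, and each row's grey bar spans its lowest to its highest value.

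Against harvest, members in 1-MCP fruit were less often within 1 log2 unit than the 30310 loci as a whole, by plain shares and with no test. After cold storage 78 members lay within 1 (74.3%, against 85.3% of the 30310 loci), 10 were higher and 17 lower, where the shares of the 30310 loci were 5.12% and 9.63%. After shelf life 80 were within 1 (76.2%, against 84.7%), 10 were higher and 15 lower, against 3.09% higher and 12.2% lower among the 30310 loci. These comparisons share the harvest column with the rule. Members within 1 of harvest in all columns but control fruit after shelf life numbered 73, and at 59 of these 1-MCP fruit stood at least 1 below control fruit after shelf life, which the rule fixes in part.

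In control fruit the value after shelf life exceeded harvest by at least 1 log2 unit at 102 members, with a median of 2.08, against 6.37% of the 30310 loci. Nothing is read from this, since the rule set both parts of this difference and keeps it above 0. The 3 exceptions were MDP0000326731, CUFF.12836 (MDP0000282177) and CUFF.46700 (MDP0000224080), the last 2 named after their values were seen. CUFF.12836 stood at 136 FPKM at harvest, 89.0 and 166 FPKM in 1-MCP fruit, and 80.6 and 250.1 FPKM in control fruit. CUFF.46700 stood at 56.2 FPKM at harvest, 35.2 and 67.3 FPKM in 1-MCP fruit, and 31.4 and 104 FPKM in control fruit. At both, each treatment was lower in the cold than at harvest and higher after shelf life than in the cold. Other members had this form too, among them MDP0000484546 and CUFF.13803 (MDP0000642609), the latter named after its values were seen.

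The members are also described by kind of identifier, with no test. Assembled loci with a gene model made up 62 of the members (0.264% of 23509) and gene models without an assembled locus 43 (0.632% of 6801). After shelf life 1-MCP fruit were lower by at least 1 at 48 of the 62 and at 38 of the 43, where 8.37% of the 30310 loci were lower. The median treatment difference was -1.75 and -2.56. The rule fixes these values in part, and shares over all loci of each kind were not computed, so no link with the kind is drawn. The median 1-MCP shelf-life difference was 0.09 over the 62 and -0.16 over the 43. In control fruit after shelf life the medians were 18.8 FPKM and 15.9 FPKM, while at harvest they were 4.18 FPKM and 1.17 FPKM. Members carrying 2 gene models, whose reads cannot be assigned to either model, were CUFF.18849 and CUFF.48015 (MDP0000339781 and MDP0000231744). The libraries do not mark strand, so reads of a locus and of an antisense partner cannot be told apart.

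Low values limit what can be said of part of the list. Under 1 FPKM stood 35 members in 1-MCP fruit after shelf life, 33 in 1-MCP fruit after cold storage, 0 in control fruit after shelf life, 20 in control fruit after cold storage and 33 at harvest. The 0 was fixed beforehand, because the limit on the control shelf-life difference puts every member above 1 FPKM in that column. The filter on mean FPKM counted that column too, so nothing is read from its contrast with the other columns. The depth of the libraries is not given in the sources used here, so the precision of the low values is unknown. With a pseudocount of 0.1, 35 of the 105 differed by 1 or more between cold storage and harvest in control fruit, and 18 by 1 or more over shelf life in 1-MCP fruit.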

How the data were processed

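RNA from apple skin was sequenced as non-directional TruSeq libraries of 100 bp reads, 15 samples in 5 groups of 3, per the labels' protocols. The authors deposited 1 table of FPKM with decimal commas, 1 column per group, per the file headers. TopHat2, Cufflinks and Cuffdiff were used, per the submitters' processing notes. Versions, genome build, annotation, scaling between libraries and how the 3 libraries of a group were joined are, like the depth, not given in the sources used here. If replicates were averaged, 1 library could set a group's value unseen.

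Groups were taken from the sample titles. From the deposited FPKM, differences of log2(FPKM + 1) between group columns were computed with Python 3.11.15 and pandas 2.3.3. This pseudocount understates change at low FPKM. A difference counted as higher or lower at 1 log2 unit or more, a rule of size. The selection of members was tested on simulated data. The planned limma test needs values per library and was not run, and gene and marker lists could not be filled without names. Members, lists and limits were chosen with earlier results of these data known. Named loci reach 5 FPKM in some column. They are the 2 members with the largest control shelf-life difference, the 2 with the highest FPKM in control fruit after shelf life, and the 2 nearest to each limit on either side. The 2 with the largest difference per direction are named for 1-MCP minus control at each time, the 1-MCP shelf-life difference, control cold storage minus harvest and 1-MCP shelf life minus harvest. Others are said to have been named after their values were seen. Alternatives were 3 scalings, 2 pseudocounts, other filters and other limits.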

Additional observations from a re-analysis of the deposited data

Results flagged for a closer look

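Over shelf life 60 of the 105 members were below 0 in 1-MCP fruit, while every member was above 0 in control fruit, by the rule. The rule fixed the sign in control fruit and limited the size of the difference in 1-MCP fruit. Nothing is therefore read from the opposite signs at these 60 members. The difference was not tested. Among the 30310 loci with a gene model 65.1% were below 0 in 1-MCP fruit, and after quantile normalization 44 members were.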

How the results depend on the processing

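No paired analysis was possible because replicates have no columns of their own, and for the same reason no replicate could be left out. Which loci are members depends on the settings. Their number, 105, became 180 with trimmed mean scaling, 60 with a pseudocount of 5, 56 with a mean of at least 5 FPKM, 361 and 34 with a control limit of 1 and 2, 31 with a steady limit of 0.5, and 62 and 43 with only assembled loci or only gene models without one. Shared with the 105 were 86 loci under trimmed mean scaling, 82 of 136 under quantile normalization, 61 of 100 with a pseudocount of 0.1 and 39 of 60 with a pseudocount of 5. With loci listed at 0 kept, 122 met the rule. The 135 loci meeting the conditions on control fruit became 221 with 75th percentile scaling, 244 with trimmed mean scaling and 69 with a pseudocount of 5. The 51 unannotated loci became 87, 103, 81 and 25 with 75th percentile, trimmed mean and quantile scaling and a pseudocount of 5, and the 41 loci of the exchanged rule became 15 with a pseudocount of 5.

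Over the 105 members held fixed, the control shelf-life difference stayed at 1.53 or more in the 3 scalings and with a pseudocount of 0.1, and at 0.63 or more with a pseudocount of 5. After cold storage the 17 members higher in 1-MCP fruit became 11 with trimmed mean scaling and 8 with a pseudocount of 5. The 14 lower became 22 with quantile normalization, 32 with a pseudocount of 0.1, 7 with a pseudocount of 5, and 9 among the 56 members with a mean of at least 5 FPKM. The median of -0.07 was -0.18 with trimmed mean scaling, -0.19 with quantile normalization and 0.17 among those 56. After shelf life, 40 of the 56 were lower in 1-MCP fruit. The median of -2.10 was -2.28, -2.40 and -2.24 with 75th percentile, trimmed mean and quantile scaling, -2.60 and -1.22 with pseudocounts of 0.1 and 5, and -1.69 among the 56. Named members gave 120 values over 5 alternatives, of which 17 lay over 1.5-fold away, these 17 with another pseudocount, and 0 differences of at least 1 changed sign. The causes were not tested. Only fewer loci passing a stricter limit or filter is given by construction.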

Other observations

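Unannotated assembled loci, which carry no gene model, were outside the rule. Of 11977 analysed, 51 met its other conditions (0.426%, against 0.346% of loci with a gene model). After cold storage 17 of these 51 were higher in 1-MCP than in control fruit by at least 1 log2 unit and 2 were lower, where the shares of the 11977 were 21.9% higher and 3.89% lower (33.3% and 3.92% of the 51). After shelf life 3 were higher and 30 lower, against 19.5% higher and 4.78% lower of the 11977, and these counts follow in large part from the conditions. CUFF.41202 had the largest control shelf-life difference of them (3.64). It stood at 24.7 FPKM at harvest, at 64.7 FPKM after cold storage and 36.7 FPKM after shelf life in 1-MCP fruit, and at 31.5 and 405 FPKM in control fruit. CUFF.18741 followed (3.33), with 28.8 FPKM at harvest, 21.2 and 18.8 FPKM in 1-MCP fruit, and 27.2 and 283 FPKM in control fruit.

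Among the 41 loci that met the rule with the treatments exchanged, CUFF.5879 (MDP0000265899) had the largest 1-MCP shelf-life difference (4.15). It stood at 7.51 FPKM at harvest, at 7.00 and 141 FPKM in 1-MCP fruit, and at 6.65 and 4.64 FPKM in control fruit.

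Some members had almost proportional profiles. Over the 57 members at 1 FPKM or more in every column, which form 1596 pairs, the closest pair was CUFF.45876 (MDP0000315815) and CUFF.7708. Their log2 FPKM, centred on each locus' mean, differed by at most 0.03 in any column. CUFF.20042 (MDP0000594227) and CUFF.25303 came next, also at 0.03. These pairs were named after their values were seen. They are the closest of 1596 pairs among loci that the rule chose for a similar shape. Pairs of other loci were not compared, and nothing is read from the closeness.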
